A study of Mus musculus with 9 samples.

Results

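The 40 genes described here encode the enzymes and carriers that break glucose down to pyruvate and lactate, admit pyruvate to mitochondria and oxidise it, rebuild glucose, or feed fructose and glycerate into the same route. They were taken as a list of names and matched by symbol to the mouse Ensembl identifiers of the count table, which holds 56923 genes. All 40 were found, and all 40 were among the 17036 genes tested. The genes were sequenced in RNA from kidneys of wild-type mice in 9 libraries, 3 from each of 3 groups, in a study of the tyrosine phosphatase PTP1B in acute kidney injury (AKI). The AKI_PTPi_mEVs group was injured and was given PTPi@mEVs, extracellular vesicles from milk that carry an siRNA to PTP1B. The AKI_PBS group was injured and given phosphate-buffered saline (PBS), and the sham group was operated on without ischemia-reperfusion (IR) injury and is labelled PBS too. No group is labelled as having received unloaded vesicles or a non-targeting siRNA, and the injured groups differ by the loaded vesicles as a whole. Age, sex, strain and the time after injury are not given in the labels used here, and they do not say whether replicates are different animals, so the tests describe variation among these libraries, which may be technical.

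Glycolysis turns glucose into pyruvate in the cytosol, with its pace set mainly at hexokinase, phosphofructokinase and pyruvate kinase, each of which comes in several isozymes. Pyruvate is then reduced to lactate or carried into mitochondria, where the pyruvate dehydrogenase complex, switched off by its kinases and on by its phosphatases, commits it to oxidation. In the kidney the proximal tubule burns mainly fatty acids and lactate and makes glucose through gluconeogenesis, whereas distal segments and the medulla rely more on glycolysis.

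Library totals lay between 9467851 and 11389479 counts, and the 40 genes took between 1.43% and 1.98% of them. Levels are CPM, counts scaled to a common library size after TMM normalization, given in the order of replicates 1, 2 and 3. Differences are log2 fold changes with standard errors from edgeR, and a gene was called where its Benjamini-Hochberg adjusted p, taken over all genes tested, was under 0.05. AKI_PBS replicate 3 held the highest AKI_PBS value for 21 of the 40 genes, and 2 genes varied more than 2-fold within AKI_PTPi_mEVs, 8 within AKI_PBS and 2 within sham. Within sham, replicate 3 was highest for 29 genes and replicate 1 lowest for 28. Replicate 3 was also highest most often within AKI_PTPi_mEVs, for 19 genes. Each pair of comparisons shares a group: AKI_PBS libraries stand on top of one fold change and at the base of another, so a high or low AKI_PBS value enters both with opposite sign.

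In injured kidneys given PBS, 7 of the 40 genes rose and 20 fell relative to sham. The 7 were the hexokinase Hk2, the phosphofructokinase Pfkp, the pyruvate kinase Pkm, the lactate carriers Slc16a1 and Slc16a3, the pyruvate dehydrogenase kinase Pdk4 and the phosphatase Pdp1. The 20 included every other kinase and phosphatase of pyruvate dehydrogenase, 3 of its subunits, both subunits of the mitochondrial pyruvate carrier, and 3 of 5 gluconeogenic genes. The called share was 67.5%, against 55.7% of all genes tested, so that calls were about as common among these genes as in the kidney at large. The split differed more, since 27.8% of all genes rose and 27.9% fell. The median log2 fold change of the 40 genes was -0.42, against 0.03 for all genes tested, and the libraries of both groups did not overlap for 29 of the 40 (8 higher and 21 lower in AKI_PBS), against 62.1% of all genes (31.2% higher and 30.9% lower). Fewer cells of a type and less RNA per cell cannot be told apart in whole-kidney RNA.

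Injured kidneys given the loaded vesicles differed from those given PBS in the other direction for most of the same genes. Relative to AKI_PBS, 19 of the 40 rose and 6 fell in AKI_PTPi_mEVs, a called share of 62.5% against 51.1% of all genes. Among all genes 25.4% rose and 25.8% fell. The 6 were Hk2, Pfkp, the regulator Pfkfb3, Slc16a1, Pdk4 and the pyruvate carrier subunit Mpc1. The median was 0.30, against -0.03 for all genes, and the libraries did not overlap for 27 genes (22 higher and 5 lower in AKI_PTPi_mEVs), against 57.9% of all genes (28.7% higher and 29.2% lower). Between AKI_PTPi_mEVs and sham, 3 genes rose (Pfkl, Pklr and Slc16a1) and 2 fell (Mpc1 and Mpc2). That share, 12.5%, lay near the 13.2% of all genes called in this comparison, where 7.43% rose and 5.79% fell. The other 35 genes lay between -0.98 (G6pc) and 1.14 (Hk2). The medians were 0.01 for the 40 genes and -0.01 for all genes, and libraries did not overlap for 18 genes (12 higher and 6 lower in AKI_PTPi_mEVs), against 39.2% of all genes (21.2% higher and 18.1% lower).

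**Figure D1:**
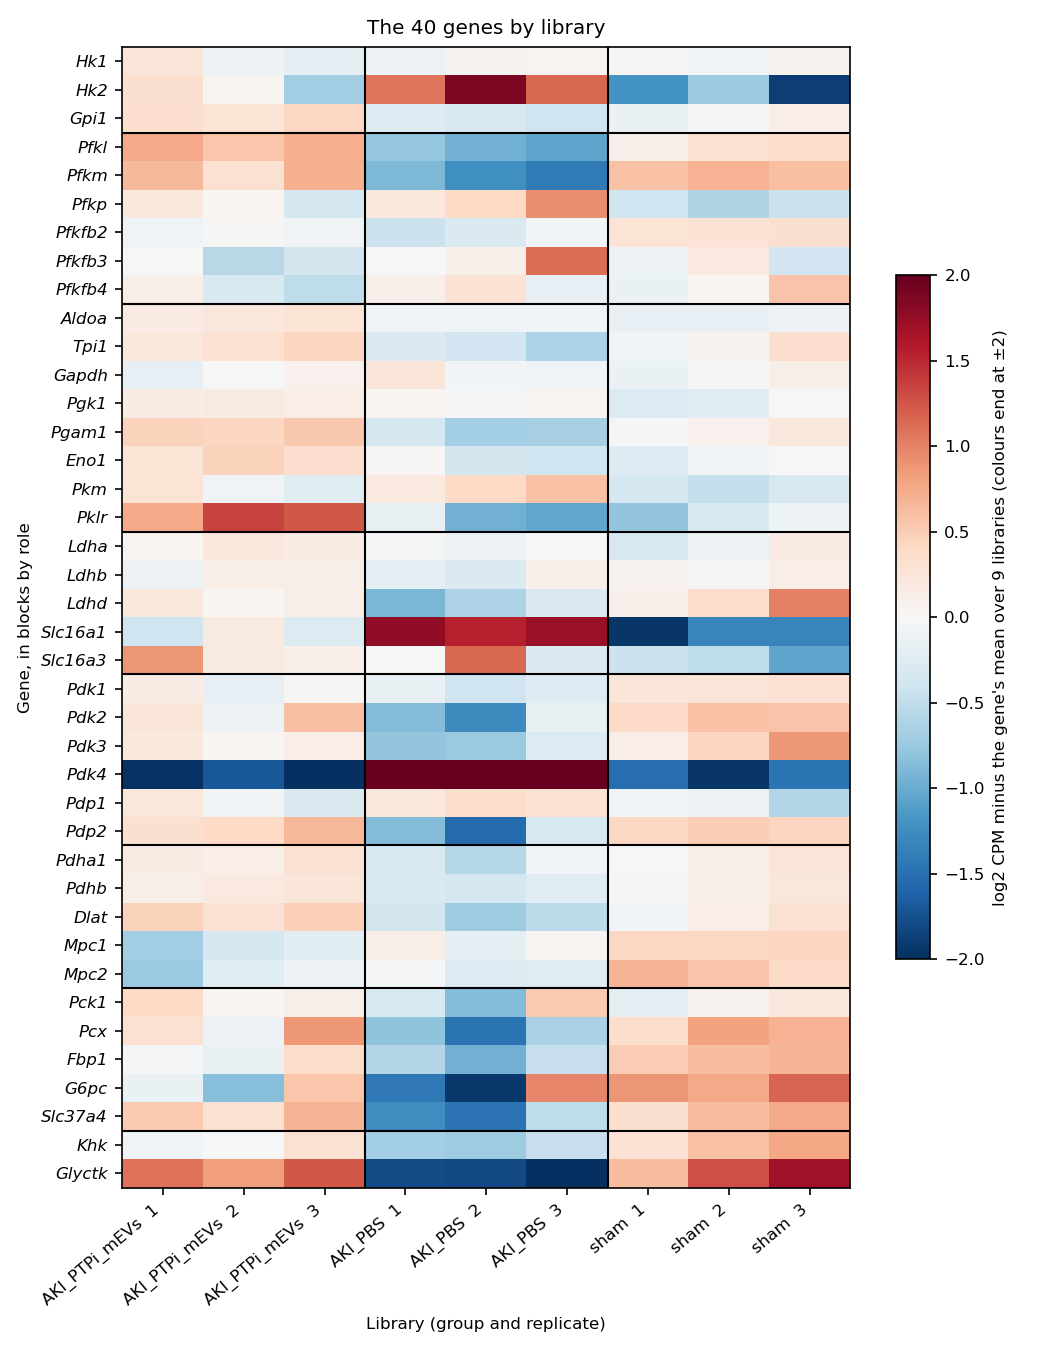
Heat map of the 40 genes (rows, grouped by role) in the 9 libraries (columns, AKI_PTPi_mEVs, AKI_PBS, sham), coloured by log2 CPM minus the gene's mean over the 9 libraries, with colours ending at 2 units. Hk2, Slc16a1 and Pdk4 stand out as high in the 3 AKI_PBS libraries, while Glyctk, Pfkm, Pcx and Slc37a4 stand out as low there.

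**Figure D2:**
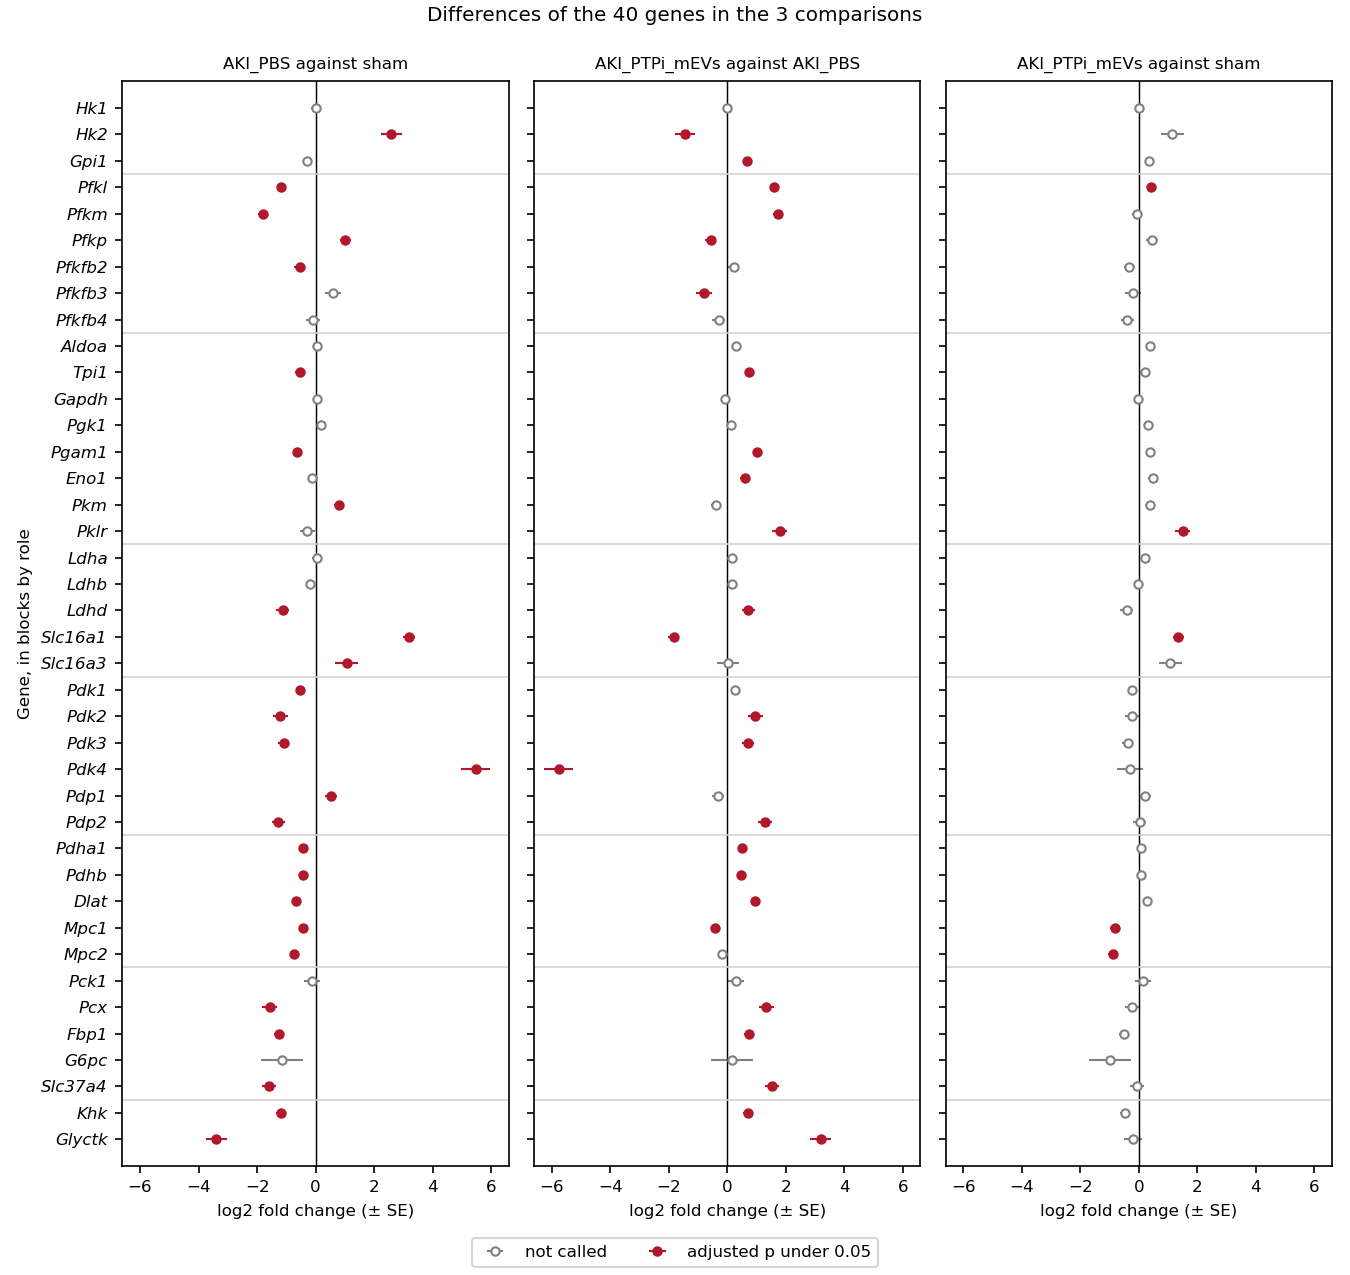
Log2 fold changes of the 40 genes (rows) in the 3 comparisons (panels), on a log2 axis, with bars for the standard error and filled points for genes called at an adjusted p under 0.05. Calls number 27 for AKI_PBS against sham, 25 for AKI_PTPi_mEVs against AKI_PBS and 5 for AKI_PTPi_mEVs against sham.

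Promoters were looked at because the genes fell into a small group that was high after injury and a larger one that was low. The windows below, each from 250 bases before to 50 bases after the listed start, belong to the 3 called genes with the largest rise and the 3 with the largest fall in AKI_PBS relative to sham among those with 1 listed start, a choice made after the values were seen. They are RefSeq sequences on GRCm38.p6, written 5′ to 3′ on the gene's strand, and capitals mark the letters ACGTG or GCGTG, the core bound by hypoxia-inducible factors, read on either strand. The palindrome CACGTG, an E-box, counts as ACGTG on both strands.
Pdk4 (chr6:5496229-5496528, minus strand): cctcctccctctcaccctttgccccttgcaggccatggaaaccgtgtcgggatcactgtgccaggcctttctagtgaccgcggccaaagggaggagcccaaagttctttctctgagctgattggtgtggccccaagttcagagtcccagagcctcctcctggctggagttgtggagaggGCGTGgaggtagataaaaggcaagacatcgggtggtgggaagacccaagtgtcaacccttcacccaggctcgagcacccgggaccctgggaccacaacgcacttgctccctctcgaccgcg
Slc16a1 (chr3:104638414-104638713, plus strand): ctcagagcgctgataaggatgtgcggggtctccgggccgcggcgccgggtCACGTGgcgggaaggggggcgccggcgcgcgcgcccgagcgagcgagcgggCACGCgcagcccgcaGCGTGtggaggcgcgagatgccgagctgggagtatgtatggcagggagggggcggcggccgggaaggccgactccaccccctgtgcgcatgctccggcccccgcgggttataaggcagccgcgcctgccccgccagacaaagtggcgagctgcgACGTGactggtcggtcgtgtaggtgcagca
Hk2 (chr6:82774405-82774704, minus strand): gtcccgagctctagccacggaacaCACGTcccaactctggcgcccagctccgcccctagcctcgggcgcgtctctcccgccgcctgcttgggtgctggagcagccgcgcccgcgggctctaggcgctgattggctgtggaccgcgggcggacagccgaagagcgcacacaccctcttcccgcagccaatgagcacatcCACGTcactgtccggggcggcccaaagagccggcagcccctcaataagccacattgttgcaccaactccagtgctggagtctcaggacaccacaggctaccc
Glyctk (chr9:106158089-106158388, minus strand): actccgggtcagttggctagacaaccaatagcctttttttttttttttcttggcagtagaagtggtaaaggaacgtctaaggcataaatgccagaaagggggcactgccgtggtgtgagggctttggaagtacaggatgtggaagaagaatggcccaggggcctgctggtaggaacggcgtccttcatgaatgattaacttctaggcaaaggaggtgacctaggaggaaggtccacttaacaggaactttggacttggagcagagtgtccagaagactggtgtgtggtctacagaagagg
Pdp2 (chr8:104591222-104591521, plus strand): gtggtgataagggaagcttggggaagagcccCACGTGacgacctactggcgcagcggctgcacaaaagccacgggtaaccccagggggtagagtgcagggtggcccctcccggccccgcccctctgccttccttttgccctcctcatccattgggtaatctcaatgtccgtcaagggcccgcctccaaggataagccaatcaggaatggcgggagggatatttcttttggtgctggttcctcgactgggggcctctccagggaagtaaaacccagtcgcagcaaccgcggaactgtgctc
Fbp1 (chr13:62888233-62888532, minus strand): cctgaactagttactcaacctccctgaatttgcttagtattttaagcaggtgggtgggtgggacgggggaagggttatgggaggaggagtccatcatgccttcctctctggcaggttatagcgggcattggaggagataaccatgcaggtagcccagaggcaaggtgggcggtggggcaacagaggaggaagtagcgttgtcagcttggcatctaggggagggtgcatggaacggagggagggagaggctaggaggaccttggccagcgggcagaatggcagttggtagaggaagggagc
Slc16a1 held 3 copies of ACGTG and 2 of GCGTG, Hk2 held 2 of ACGTG, and Pdk4 held 1 of GCGTG. Pdp2, which fell, also held 2 copies of ACGTG, both in 1 CACGTG. Neither motif occurred in the windows of Glyctk and Fbp1. The choice left out genes with more than 1 listed start. Among those, Pfkm and Pcx, which fell, each had a window with 3 copies of ACGTG, and Slc37a4, which fell too, had neither motif. Pkm, which rose, had 1 window with neither motif and another with 2 copies of ACGTG. Over all 32851 mouse promoters of this length, 19.6% held ACGTG, 32.4% held GCGTG, 7.15% held CACGTG, and 1.79% held TGACGTCA, the cAMP response element bound by CREB. Of the 59 listed promoters of 39 of the 40 genes, 40.7% held ACGTG, 42.4% GCGTG, 16.9% CACGTG and 1.69% TGACGTCA. One of the Ldha promoters held 5 copies of ACGTG, 2 of GCGTG and 1 of TGACGTCA, and Ldha was not called in any comparison. These are letter matches, and binding was not measured.

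Of the hexokinases, Hk2 was called and Hk1 was not. Hk1, the constitutive hexokinase that traps glucose as glucose phosphate, had 149, 115 and 108 CPM in AKI_PTPi_mEVs libraries, 115, 129 and 129 CPM in AKI_PBS libraries and 126, 117 and 130.1 CPM in sham libraries. Its groups overlapped throughout, and its log2 fold change was -0.0015 (edgeR adjusted p = 0.994) for AKI_PBS against sham. Hk2, the inducible hexokinase found in insulin-responsive tissue and in many tumours, had 4.22, 3.49 and 2.09 CPM in AKI_PTPi_mEVs libraries, 7.09, 12.4 and 7.51 CPM in AKI_PBS libraries and 1.47, 2.05 and 0.914 CPM in sham libraries. Every AKI_PBS library lay above every other library, and the AKI_PTPi_mEVs libraries lay between the other groups without overlap. Hk2 rose in AKI_PBS relative to sham (log2 fold change 2.59 ± 0.37, adjusted p = 7.37e-05 in edgeR) and fell in AKI_PTPi_mEVs relative to AKI_PBS (log2 fold change -1.45 ± 0.34, adjusted p = 0.00307 in edgeR). Relative to sham the AKI_PTPi_mEVs value was 1.14 (edgeR adjusted p = 0.0699), and it passed the threshold without AKI_PTPi_mEVs replicate 3 (1.38). Hk2 reached the low-count filter's minimum in every library of both injured groups but not in every sham library. In TPM, a level that is divided by exon length (GENCODE vM21) and scaled to the same total in each library, Hk1 remained the more abundant hexokinase, with 45.3 ± 10.4 TPM in AKI_PTPi_mEVs, 47.7 ± 3.58 TPM in AKI_PBS and 44.2 ± 2.22 TPM in sham libraries, against 1.71 ± 0.644 TPM in AKI_PTPi_mEVs, 4.97 ± 1.76 TPM in AKI_PBS and 0.754 ± 0.299 TPM in sham libraries for Hk2.

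Gpi1, the isomerase that interconverts glucose phosphate and fructose phosphate, had 489, 471 and 517 CPM in AKI_PTPi_mEVs libraries, 326, 312 and 296 CPM in AKI_PBS libraries and 356, 377 and 425 CPM in sham libraries. The AKI_PBS libraries were all below the sham libraries, and the AKI_PTPi_mEVs libraries were all above them. Gpi1 rose in AKI_PTPi_mEVs relative to AKI_PBS (log2 fold change 0.66 ± 0.13, adjusted p = 0.000882 in edgeR). The difference of AKI_PBS from sham was -0.31 (edgeR adjusted p = 0.0511) and passed the threshold without sham replicate 1 (-0.38).

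The subunits of phosphofructokinase, the committing step of glycolysis, moved in opposite directions after injury. Pfkl, the liver-type subunit, had 204, 178 and 199 CPM in AKI_PTPi_mEVs libraries, 70.4, 62.2 and 58.0 CPM in AKI_PBS libraries and 130.0, 148 and 154 CPM in sham libraries. All AKI_PBS libraries lay below all sham libraries, and all AKI_PTPi_mEVs libraries lay above them. Pfkl fell in AKI_PBS relative to sham (log2 fold change -1.18 ± 0.13, adjusted p = 1.29e-05 in edgeR) and rose in AKI_PTPi_mEVs relative to AKI_PBS (log2 fold change 1.61 ± 0.13, adjusted p = 2.57e-06 in edgeR). Its rise in AKI_PTPi_mEVs relative to sham (log2 fold change 0.43 ± 0.13, adjusted p = 0.0476 in edgeR) was lost without any 1 of the 6 libraries (0.36 to 0.48). Pfkm, the muscle-type subunit, had 66.0, 52.4 and 69.0 CPM in AKI_PTPi_mEVs libraries, 22.7, 18.1 and 15.8 CPM in AKI_PBS libraries and 63.3, 68.5 and 64.1 CPM in sham libraries. It fell to a level that no library of the other groups reached (log2 fold change -1.79 ± 0.16, adjusted p = 2.57e-06 in edgeR) and rose in AKI_PTPi_mEVs relative to AKI_PBS (log2 fold change 1.73 ± 0.16, adjusted p = 5.58e-06 in edgeR), where its value against sham was -0.06. Pfkp, the platelet-type subunit, went the other way.

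Pfkp had 114, 101 and 77.4 CPM in AKI_PTPi_mEVs libraries, 114, 131 and 188 CPM in AKI_PBS libraries and 75.0, 65.5 and 73.8 CPM in sham libraries. Its AKI_PBS libraries lay above all sham libraries, but the lowest of them was level with the highest AKI_PTPi_mEVs library, and those groups overlapped. Pfkp rose in AKI_PBS relative to sham (log2 fold change 1.02 ± 0.19, adjusted p = 0.000686 in edgeR) and fell in AKI_PTPi_mEVs relative to AKI_PBS (log2 fold change -0.56 ± 0.19, adjusted p = 0.0252 in edgeR). That fall was not called without AKI_PBS replicate 3 (-0.32), without AKI_PTPi_mEVs replicate 2 (-0.57) or without AKI_PTPi_mEVs replicate 3 (-0.41). On the per-length scale Pfkl was the most abundant subunit in AKI_PTPi_mEVs, at 90.0 TPM, with Pfkm at 58.0 TPM. In sham Pfkl and Pfkm were close, at 65.3 ± 3.97 and 59.3 ± 3.24 TPM. In AKI_PBS the Pfkl level was 31.2 ± 3.39 TPM and the Pfkp level 35.2 ± 8.77 TPM, with Pfkm at 18.5 ± 3.58 TPM. The order of Pfkl and Pfkp was not the same in every library, since AKI_PBS replicate 1 had 34.5 TPM of Pfkl and 27.8 TPM of Pfkp. These levels depend on the annotated exon lengths, 6675 bases for Pfkl, 3340 for Pfkm and 13401 for Pfkp. Before division by length, Pfkp averaged 144 CPM and Pfkl 63.5 CPM in AKI_PBS. Pfkp shares 748 exonic bases with Pitrm1 on the opposite strand, and Pitrm1 moved in the other direction (-0.67 for AKI_PBS over sham and 0.85 for AKI_PTPi_mEVs over AKI_PBS).

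Bifunctional enzymes set the level of the fructose bisphosphate that activates phosphofructokinase. Pfkfb2, the heart-type enzyme, had 8.90, 9.497 and 8.90 CPM in AKI_PTPi_mEVs libraries, 6.92, 7.63 and 8.93 CPM in AKI_PBS libraries and 11.3, 11.3 and 11.7 CPM in sham libraries. All sham libraries were above all injured libraries, and the injured groups overlapped. Its fall in AKI_PBS relative to sham (log2 fold change -0.55 ± 0.18, adjusted p = 0.0228 in edgeR) was not called without AKI_PBS replicate 1 (-0.47), AKI_PBS replicate 2 (-0.53), sham replicate 2 (-0.56) or sham replicate 3 (-0.54). Pfkfb3, the inducible enzyme with the highest kinase activity, had 34.8, 23.4 and 26.8 CPM in AKI_PTPi_mEVs libraries, 34.5, 37.1 and 74.8 CPM in AKI_PBS libraries and 31.7, 39.2 and 26.3 CPM in sham libraries. Only AKI_PBS replicate 3 stood clear of the other 8 libraries. Pfkfb3 fell in AKI_PTPi_mEVs relative to AKI_PBS (log2 fold change -0.78 ± 0.28, adjusted p = 0.0309 in edgeR), a call that was lost without AKI_PBS replicate 3 (-0.33), AKI_PTPi_mEVs replicate 2 (-0.64) or AKI_PTPi_mEVs replicate 3 (-0.73). Its value for AKI_PBS against sham was 0.59 (edgeR adjusted p = 0.084), which passed the threshold without AKI_PBS replicate 1 (0.78) or AKI_PBS replicate 2 (0.75). Pfkfb4, the testis-type enzyme, had 15.0, 11.2 and 9.78 CPM in AKI_PTPi_mEVs libraries, 14.9, 17.0 and 12.5 CPM in AKI_PBS libraries and 12.6, 14.2 and 20.5 CPM in sham libraries. Its groups overlapped throughout, and it was not called in any comparison, with log2 fold changes between -0.39 and -0.10.

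Lower glycolysis is represented by 8 genes that carry fructose bisphosphate on to pyruvate, too few for their called share to be set apart from that of genes at large. In AKI_PBS 1 of the 8 rose and 2 fell relative to sham, 37.5% called against 55.7% of all genes. The libraries did not overlap for 4 of the 8, against 62.1% of all genes. In AKI_PTPi_mEVs 4 rose and 0 fell relative to AKI_PBS, 50% called against 51.1% of all genes, of which 25.4% rose and 25.8% fell. Tpi1, the triose phosphate isomerase, had 1029, 1100.2 and 1199 CPM in AKI_PTPi_mEVs libraries, 731, 681 and 576 CPM in AKI_PBS libraries and 854, 936 and 1117 CPM in sham libraries. Each AKI_PBS value was below all 6 others, while AKI_PTPi_mEVs and sham overlapped. Tpi1 fell in AKI_PBS relative to sham (log2 fold change -0.55 ± 0.15, adjusted p = 0.00783 in edgeR) and rose in AKI_PTPi_mEVs relative to AKI_PBS (log2 fold change 0.74 ± 0.15, adjusted p = 0.00133 in edgeR). Pgam1, the phosphoglycerate mutase, had 229.9, 226 and 243 CPM in AKI_PTPi_mEVs libraries, 131, 104 and 106 CPM in AKI_PBS libraries and 165, 177 and 194 CPM in sham libraries. AKI_PTPi_mEVs was highest and AKI_PBS lowest, with no overlap between any pair of groups. It fell in AKI_PBS relative to sham (log2 fold change -0.65 ± 0.13, adjusted p = 0.00122 in edgeR) and rose in AKI_PTPi_mEVs relative to AKI_PBS (log2 fold change 1.03 ± 0.13, adjusted p = 5.48e-05 in edgeR).

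Eno1, the ubiquitous enolase, had 1937, 2203 and 2012 CPM in AKI_PTPi_mEVs libraries, 1624, 1241 and 1216 CPM in AKI_PBS libraries and 1328, 1498 and 1592 CPM in sham libraries. It rose in AKI_PTPi_mEVs relative to AKI_PBS (log2 fold change 0.59 ± 0.15, adjusted p = 0.00595 in edgeR), all 3 AKI_PTPi_mEVs libraries lying above the other 6, while AKI_PBS and sham overlapped, with a difference of -0.11 (edgeR adjusted p = 0.542). Aldoa, the muscle-type aldolase, averaged 1806 ± 62.2 CPM in AKI_PTPi_mEVs, 1463 ± 7.15 CPM in AKI_PBS and 1402 ± 36.4 CPM in sham (SD, n = 3 each). The groups did not overlap in any comparison, but no difference passed the threshold, and the value for AKI_PTPi_mEVs against AKI_PBS was 0.30 (edgeR adjusted p = 0.0533). Pgk1, the phosphoglycerate kinase, and Gapdh, the glyceraldehyde phosphate dehydrogenase often used as a reference transcript, were not called in any comparison. Pgk1 lay between 0.13 and 0.32 log2 units, and Gapdh averaged 757 ± 67.6 CPM in AKI_PTPi_mEVs, 796 ± 101 CPM in AKI_PBS and 764 ± 65.1 CPM in sham (SD, n = 3 each), with log2 fold changes of 0.06, -0.07 and -0.01 for AKI_PBS over sham, AKI_PTPi_mEVs over AKI_PBS and AKI_PTPi_mEVs over sham. Gapdh, Pgk1, Ldha, Tpi1, Eno1, Aldoa and Pgam1 have processed copies elsewhere in the mouse genome between which reads could be split, so their levels are less certain than those of the other genes.

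The pyruvate kinases, which make the last ATP of glycolysis, differed from each other. Pkm, the gene of the muscle and proliferating-cell forms, had 707, 557 and 492 CPM in AKI_PTPi_mEVs libraries, 671, 768 and 873 CPM in AKI_PBS libraries and 458, 420.0 and 467 CPM in sham libraries. All injured libraries lay above all sham libraries, and the injured groups overlapped at their edges. Pkm rose in AKI_PBS relative to sham (log2 fold change 0.78 ± 0.16, adjusted p = 0.00118 in edgeR). For AKI_PTPi_mEVs against AKI_PBS its value was -0.40 (edgeR adjusted p = 0.0524), which passed the threshold without AKI_PBS replicate 1 (-0.48) or AKI_PTPi_mEVs replicate 1 (-0.54). The counts of Pkm do not separate its splice forms, and a gene model on the same strand, Gm49759, shares 767 of its exonic bases and moved in the same direction (1.72 for AKI_PBS over sham and -1.69 for AKI_PTPi_mEVs over AKI_PBS).

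Pklr, the liver and red-cell pyruvate kinase that is also made in the proximal tubule, had 51.7, 78.5 and 72.1 CPM in AKI_PTPi_mEVs libraries, 27.6, 15.7 and 14.8 CPM in AKI_PBS libraries and 17.7, 24.8 and 28.7 CPM in sham libraries. Every AKI_PTPi_mEVs library was above every other library, and AKI_PBS and sham overlapped. Pklr rose in AKI_PTPi_mEVs relative to AKI_PBS (log2 fold change 1.80 ± 0.25, adjusted p = 0.000109 in edgeR), a 3.48-fold difference, and relative to sham (log2 fold change 1.505 ± 0.25, adjusted p = 0.0029 in edgeR). For AKI_PBS against sham the value was -0.29 (edgeR adjusted p = 0.347), and it was called as lower without AKI_PBS replicate 1 (-0.64). Summed haemoglobin and other red blood cell marker counts were 20.6 to 48.1 CPM in AKI_PTPi_mEVs libraries, 113 to 256 CPM in AKI_PBS libraries and 91.6 to 123 CPM in sham libraries. The part of red cells in the Pklr difference was not tested. Hcn3, which shares 711 exonic bases with Pklr on the opposite strand, went the other way (1.28 for AKI_PBS over sham and -1.24 for AKI_PTPi_mEVs over AKI_PBS).

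Lactate is made by lactate dehydrogenase A, used by lactate dehydrogenase B and moved across membranes by monocarboxylate carriers. Ldha had 1231, 1380.2 and 1334 CPM in AKI_PTPi_mEVs libraries, 1171, 1120.1 and 1197 CPM in AKI_PBS libraries and 957, 1114 and 1339 CPM in sham libraries, and Ldhb had 1731, 2018 and 2010.3 CPM in AKI_PTPi_mEVs libraries, 1644, 1526 and 2003 CPM in AKI_PBS libraries and 1957, 1898 and 2042 CPM in sham libraries. Neither was called in any comparison, and AKI_PBS overlapped with sham for both. Per length, Ldhb had the highest level of the 40 genes in each group, with 3779 ± 152 TPM in AKI_PTPi_mEVs, 3587 ± 428 TPM in AKI_PBS and 3793 ± 99.6 TPM in sham libraries. Ldhd, the mitochondrial enzyme that oxidises D-lactate, had 567, 503 and 530.4 CPM in AKI_PTPi_mEVs libraries, 260.3, 318 and 398 CPM in AKI_PBS libraries and 522, 626 and 981 CPM in sham libraries. Its AKI_PBS libraries were lowest and overlapped with neither other group. Ldhd fell in AKI_PBS relative to sham (log2 fold change -1.12 ± 0.22, adjusted p = 0.000873 in edgeR) and rose in AKI_PTPi_mEVs relative to AKI_PBS (log2 fold change 0.71 ± 0.22, adjusted p = 0.0158 in edgeR), the rise being lost without AKI_PBS replicate 1 (0.58). Ldhd shares 2246 exonic bases with Znrf1 on the opposite strand, and Znrf1 was not called in any comparison.

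Slc16a1, the widely expressed monocarboxylate carrier that takes up or releases lactate with a proton, had 62.5, 92.5 and 67.8 CPM in AKI_PTPi_mEVs libraries, 282, 240.3 and 273 CPM in AKI_PBS libraries and 21.4, 33.0 and 32.9 CPM in sham libraries. No groups overlapped: AKI_PBS was highest, AKI_PTPi_mEVs intermediate and sham lowest. Slc16a1 was 9.10-fold higher in AKI_PBS than in sham (log2 fold change 3.19 ± 0.20, adjusted p = 2.59e-07 in edgeR). It fell in AKI_PTPi_mEVs relative to AKI_PBS (log2 fold change -1.84 ± 0.19, adjusted p = 1.08e-05 in edgeR) and remained above sham there (log2 fold change 1.35 ± 0.19, adjusted p = 0.0011 in edgeR). With Pfkl and Mpc1 it was 1 of 3 genes called in all 3 comparisons. Slc16a3, the carrier of lactate-exporting cells, had 6.61, 4.04 and 3.85 CPM in AKI_PTPi_mEVs libraries, 3.54, 7.98 and 2.92 CPM in AKI_PBS libraries and 2.65, 2.51 and 1.73 CPM in sham libraries. All injured libraries were above the sham libraries, at levels of a few CPM. Its rise in AKI_PBS (log2 fold change 1.06 ± 0.40, adjusted p = 0.0361 in edgeR) was not called without AKI_PBS replicate 2 (0.49) or without sham replicate 1, 2 or 3 (1.16, 1.12 and 0.89). Its value in AKI_PTPi_mEVs was 0.01 (edgeR adjusted p = 0.981) against AKI_PBS and 1.08 (edgeR adjusted p = 0.0942) against sham.

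The largest difference among the 40 genes was in Pdk4, a kinase that switches off pyruvate dehydrogenase and is induced in fasting and by fatty acids and glucocorticoids. Pdk4 had 13.4, 16.4 and 12.0 CPM in AKI_PTPi_mEVs libraries, 506, 356 and 1409 CPM in AKI_PBS libraries and 18.3, 13.8 and 19.2 CPM in sham libraries. The AKI_PBS libraries lay far above both other groups, which overlapped each other, and AKI_PBS replicate 3 was highest among them. Pdk4 was 44.3-fold higher in AKI_PBS than in sham (log2 fold change 5.47 ± 0.49, adjusted p = 6.39e-06 in edgeR) and 54.4-fold lower in AKI_PTPi_mEVs than in AKI_PBS (log2 fold change -5.77 ± 0.50, adjusted p = 8.22e-06 in edgeR). Between AKI_PTPi_mEVs and sham its value was -0.30 (edgeR adjusted p = 0.715). Without AKI_PBS replicate 3 the log2 fold changes were 4.66 for AKI_PBS over sham and -4.95 for AKI_PTPi_mEVs over AKI_PBS, both called.

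The other 3 pyruvate dehydrogenase kinases went down where Pdk4 went up. Pdk2, the broadly expressed kinase, had 427, 332 and 542 CPM in AKI_PTPi_mEVs libraries, 197, 150.3 and 322 CPM in AKI_PBS libraries and 469, 537 and 536 CPM in sham libraries. AKI_PBS was lowest without overlap with either group, and AKI_PTPi_mEVs and sham overlapped. Pdk2 fell in AKI_PBS relative to sham (log2 fold change -1.20 ± 0.25, adjusted p = 0.00127 in edgeR) and rose in AKI_PTPi_mEVs relative to AKI_PBS (log2 fold change 0.96 ± 0.25, adjusted p = 0.00611 in edgeR). Pdk3, a kinase prominent in testis and brain, had 76.3, 67.8 and 72.4 CPM in AKI_PTPi_mEVs libraries, 38.3, 39.5 and 54.8 CPM in AKI_PBS libraries and 72.5, 89.0 and 121 CPM in sham libraries. Its AKI_PBS libraries were again the lowest, and the others overlapped. Pdk3 fell in AKI_PBS relative to sham (log2 fold change -1.09 ± 0.19, adjusted p = 0.000393 in edgeR) and rose in AKI_PTPi_mEVs relative to AKI_PBS (log2 fold change 0.71 ± 0.19, adjusted p = 0.00801 in edgeR). Pdk1, known as a target of hypoxia-inducible factor, had 41.9, 33.6 and 38.5 CPM in AKI_PTPi_mEVs libraries, 34.1, 28.5 and 31.5 CPM in AKI_PBS libraries and 44.8, 44.9 and 45.9 CPM in sham libraries. It fell in AKI_PBS relative to sham (log2 fold change -0.53 ± 0.14, adjusted p = 0.00512 in edgeR), and its difference between AKI_PTPi_mEVs and AKI_PBS was 0.28 (edgeR adjusted p = 0.103). On the per-length scale Pdk2 was the most abundant kinase in AKI_PTPi_mEVs, at 424 TPM, and in sham, at 492 TPM. In AKI_PBS Pdk4 stood at 698 ± 510 TPM (471, 341 and 1282 TPM in replicates 1, 2 and 3) and Pdk2 at 229 ± 85.9 TPM.

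The phosphatases that switch pyruvate dehydrogenase back on also diverged. Pdp2, the phosphatase regulated by nutrition and insulin in rat tissues, had 163, 172 and 207 CPM in AKI_PTPi_mEVs libraries, 71.5, 44.7 and 104 CPM in AKI_PBS libraries and 173, 183 and 176 CPM in sham libraries. Its AKI_PBS libraries were all below the 6 others. Pdp2 fell in AKI_PBS relative to sham (log2 fold change -1.27 ± 0.23, adjusted p = 0.000549 in edgeR) and rose in AKI_PTPi_mEVs relative to AKI_PBS (log2 fold change 1.30 ± 0.23, adjusted p = 0.000593 in edgeR), where its value against sham was 0.03. Pdp1, the calcium-stimulated phosphatase, had 13.5, 11.03 and 9.45 CPM in AKI_PTPi_mEVs libraries, 13.6, 14.8 and 14.1 CPM in AKI_PBS libraries and 11.2, 10.7 and 7.72 CPM in sham libraries. The AKI_PBS libraries lay above the 6 others by a narrow margin. Its rise in AKI_PBS (log2 fold change 0.52 ± 0.20, adjusted p = 0.0458 in edgeR) was lost without any 1 of the 6 libraries (0.36 to 0.60), and its value for AKI_PTPi_mEVs against AKI_PBS was -0.32 (edgeR adjusted p = 0.21).

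The 3 subunit genes of the complex among the 40, Dlat, Pdhb and Pdha1, fell in AKI_PBS by smaller amounts. Pdhx, another subunit gene, named after its value was seen, was not called, with 0.01 for AKI_PBS over sham and 0.37 for AKI_PTPi_mEVs over AKI_PBS. Dlat, the acetyltransferase core, had 274, 245 and 278 CPM in AKI_PTPi_mEVs libraries, 155, 122 and 139 CPM in AKI_PBS libraries and 191, 218 and 247 CPM in sham libraries. The AKI_PBS libraries were lowest without overlap, and AKI_PTPi_mEVs and sham met at their edges. Dlat fell in AKI_PBS relative to sham (log2 fold change -0.66 ± 0.14, adjusted p = 0.00173 in edgeR) and rose in AKI_PTPi_mEVs relative to AKI_PBS (log2 fold change 0.94 ± 0.14, adjusted p = 0.000178 in edgeR). Pdhb, the beta subunit of the decarboxylase, had 368, 388 and 399.6 CPM in AKI_PTPi_mEVs libraries, 273, 266 and 288 CPM in AKI_PBS libraries and 347, 363 and 398 CPM in sham libraries. It too was lowest in AKI_PBS without overlap, falling relative to sham (log2 fold change -0.42 ± 0.12, adjusted p = 0.0106 in edgeR) and rising in AKI_PTPi_mEVs relative to AKI_PBS (log2 fold change 0.48 ± 0.12, adjusted p = 0.00543 in edgeR).

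Pdha1, the alpha subunit and the target of the kinases, had 471, 462 and 519 CPM in AKI_PTPi_mEVs libraries, 343, 283 and 401 CPM in AKI_PBS libraries and 418, 458 and 502 CPM in sham libraries. Each AKI_PBS library was below the 6 others. Pdha1 fell in AKI_PBS relative to sham (log2 fold change -0.42 ± 0.15, adjusted p = 0.0281 in edgeR). That call was lost without AKI_PBS replicate 1 (-0.43), AKI_PBS replicate 2 (-0.30), sham replicate 2 (-0.44) or sham replicate 3 (-0.36). Its rise in AKI_PTPi_mEVs relative to AKI_PBS (log2 fold change 0.50 ± 0.15, adjusted p = 0.0138 in edgeR) was lost without AKI_PBS replicate 2 (0.38). Map3k15, which shares 603 exonic bases with Pdha1 on the opposite strand, moved the same way (-1.20 and 0.85). It averaged 13.7 CPM in AKI_PTPi_mEVs, 7.58 CPM in AKI_PBS and 17.4 CPM in sham.

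The mitochondrial pyruvate carrier, a pair of proteins that lets pyruvate into the matrix, was low in both injured groups. Mpc1 had 181, 229.6 and 252 CPM in AKI_PTPi_mEVs libraries, 316, 258 and 305 CPM in AKI_PBS libraries and 389, 391 and 395 CPM in sham libraries. No groups overlapped, and AKI_PTPi_mEVs was the lowest. Mpc1 fell in AKI_PBS relative to sham (log2 fold change -0.42 ± 0.15, adjusted p = 0.0273 in edgeR) and in AKI_PTPi_mEVs relative to sham (log2 fold change -0.83 ± 0.15, adjusted p = 0.00386 in edgeR). The call in AKI_PBS was lost without AKI_PBS replicate 2 (-0.33), sham replicate 2 (-0.43) or sham replicate 3 (-0.42). Mpc1 also fell in AKI_PTPi_mEVs relative to AKI_PBS (log2 fold change -0.41 ± 0.15, adjusted p = 0.0338 in edgeR), which was lost without AKI_PBS replicate 1 (-0.34), AKI_PBS replicate 3 (-0.37), AKI_PTPi_mEVs replicate 1 (-0.27) or AKI_PTPi_mEVs replicate 2 (-0.42). Mpc2 had 128, 182 and 199 CPM in AKI_PTPi_mEVs libraries, 211, 179 and 181 CPM in AKI_PBS libraries and 346, 318 and 278 CPM in sham libraries. All injured libraries were below all sham libraries, and the injured groups overlapped. Mpc2 fell in AKI_PBS (log2 fold change -0.72 ± 0.17, adjusted p = 0.00283 in edgeR) and in AKI_PTPi_mEVs (log2 fold change -0.89 ± 0.17, adjusted p = 0.00549 in edgeR) relative to sham, and its value between the injured groups was -0.16 (edgeR adjusted p = 0.435).

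Gluconeogenesis runs from pyruvate through pyruvate carboxylase, phosphoenolpyruvate carboxykinase, fructose bisphosphatase and the glucose phosphatase system of the endoplasmic reticulum. Pcx, the carboxylase that makes oxaloacetate in mitochondria, had 429, 322 and 632 CPM in AKI_PTPi_mEVs libraries, 198, 126 and 223 CPM in AKI_PBS libraries and 444, 607 and 562 CPM in sham libraries. The AKI_PBS libraries were lowest without overlap, and the other groups overlapped. Pcx fell in AKI_PBS relative to sham (log2 fold change -1.56 ± 0.26, adjusted p = 0.000236 in edgeR) and rose in AKI_PTPi_mEVs relative to AKI_PBS (log2 fold change 1.34 ± 0.25, adjusted p = 0.000848 in edgeR). Fbp1, the fructose bisphosphatase, had 993, 912 and 1295 CPM in AKI_PTPi_mEVs libraries, 675, 519 and 730.3 CPM in AKI_PBS libraries and 1438, 1545 and 1616 CPM in sham libraries. AKI_PTPi_mEVs lay between AKI_PBS, which was lowest, and sham, with no overlap between any groups. Fbp1 fell in AKI_PBS relative to sham (log2 fold change -1.26 ± 0.17, adjusted p = 6.02e-05 in edgeR) and rose in AKI_PTPi_mEVs relative to AKI_PBS (log2 fold change 0.73 ± 0.17, adjusted p = 0.00323 in edgeR). Relative to sham, AKI_PTPi_mEVs stood at -0.52 (edgeR adjusted p = 0.0606), which passed the threshold without AKI_PTPi_mEVs replicate 3 (-0.68).

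Slc37a4, the transporter that brings glucose phosphate to the phosphatase, had 864, 739 and 964 CPM in AKI_PTPi_mEVs libraries, 252, 216 and 422 CPM in AKI_PBS libraries and 750.2, 923 and 1011 CPM in sham libraries. Only the AKI_PBS libraries stood apart, below the other 6. Slc37a4 fell in AKI_PBS relative to sham (log2 fold change -1.59 ± 0.23, adjusted p = 8.78e-05 in edgeR) and rose in AKI_PTPi_mEVs relative to AKI_PBS (log2 fold change 1.53 ± 0.23, adjusted p = 0.000159 in edgeR). Pck1, the carboxykinase often taken as the rate-limiting step, had 2472, 1922 and 2017 CPM in AKI_PTPi_mEVs libraries, 1517, 1024 and 2689.6 CPM in AKI_PBS libraries and 1626, 1961 and 2158 CPM in sham libraries. AKI_PBS held both the lowest and the highest of the 9 values, and Pck1 was not called in any comparison, with -0.14 (edgeR adjusted p = 0.696) for AKI_PBS against sham. Without AKI_PBS replicate 3 it was called in both comparisons (-0.59 for AKI_PBS over sham and 0.75 for AKI_PTPi_mEVs over AKI_PBS).

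G6pc, the catalytic subunit of glucose phosphatase, had 195, 119 and 312 CPM in AKI_PTPi_mEVs libraries, 78.7, 56.1 and 421 CPM in AKI_PBS libraries and 394, 361 and 477 CPM in sham libraries. AKI_PBS replicate 3 lay at the sham level, while AKI_PBS replicates 1 and 2 lay below all other libraries. Its log2 fold changes were not called, at -1.15 (edgeR adjusted p = 0.213) for AKI_PBS over sham, 0.17 (edgeR adjusted p = 0.862) for AKI_PTPi_mEVs over AKI_PBS and -0.98 (edgeR adjusted p = 0.427) for AKI_PTPi_mEVs over sham. Without AKI_PBS replicate 3 they were -2.61 (edgeR adjusted p = 0.000238) for AKI_PBS over sham and 1.63 (edgeR adjusted p = 0.00367) for AKI_PTPi_mEVs over AKI_PBS. The gluconeogenic genes, summed, had 4952, 4014 and 5220.3 CPM in the AKI_PTPi_mEVs libraries, 2721, 1942 and 4486 CPM in the AKI_PBS libraries and 4652, 5397 and 5824 CPM in the sham libraries.

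**Figure D3:**
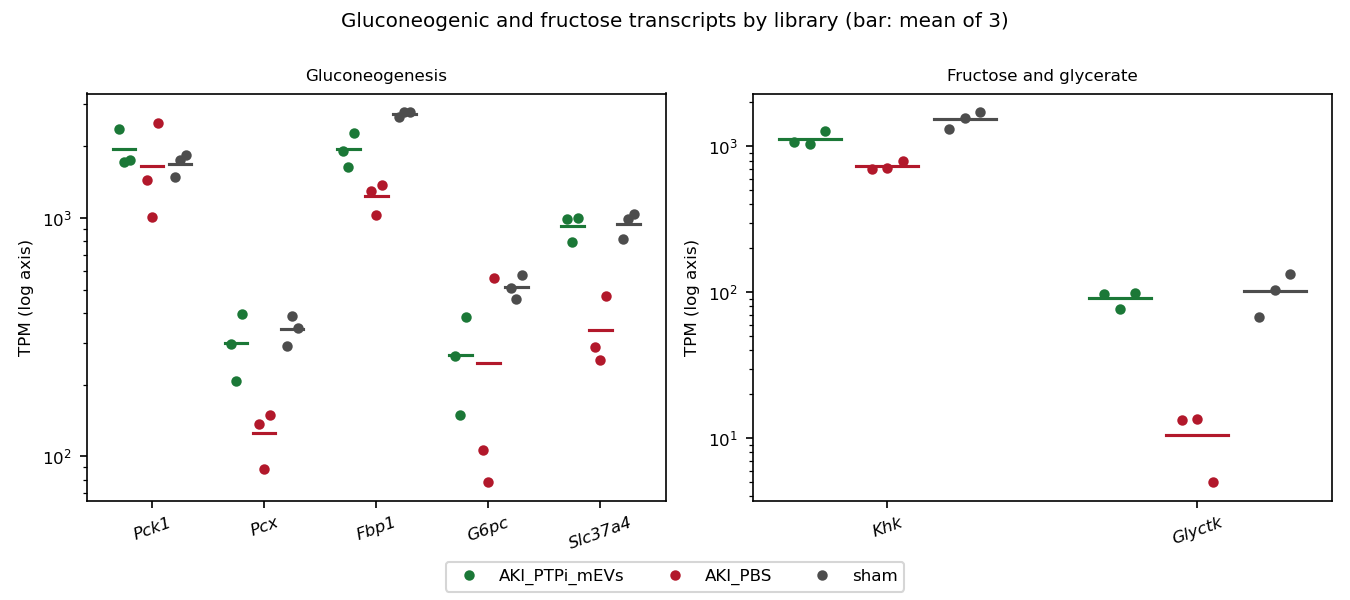
TPM on a log axis of the gluconeogenic genes (left panel) and of Khk and Glyctk (right panel) in AKI_PTPi_mEVs, AKI_PBS and sham, with a point for each library and a bar for the mean of 3. Slc37a4, Pcx and Fbp1 are low in all 3 AKI_PBS libraries, whereas AKI_PBS replicate 3 is level with sham for G6pc and above it for Pck1.

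Both kinases of fructose and glycerate metabolism fell in AKI_PBS. Khk, ketohexokinase, which phosphorylates fructose in the proximal tubule, had 587, 614 and 766 CPM in AKI_PTPi_mEVs libraries, 386, 379 and 450.2 CPM in AKI_PBS libraries and 759.7, 925 and 1057 CPM in sham libraries. The AKI_PBS libraries were lowest without overlap. Khk fell in AKI_PBS relative to sham (log2 fold change -1.17 ± 0.16, adjusted p = 6.61e-05 in edgeR) and rose in AKI_PTPi_mEVs relative to AKI_PBS (log2 fold change 0.69 ± 0.16, adjusted p = 0.00323 in edgeR). Glyctk, the glycerate kinase of fructose and serine breakdown, had 125, 106 and 140.1 CPM in AKI_PTPi_mEVs libraries, 17.1, 17.0 and 6.63 CPM in AKI_PBS libraries and 91.2, 144 and 192 CPM in sham libraries. Its AKI_PBS values were far below every other library, and the other groups overlapped. Glyctk was 10.5-fold lower in AKI_PBS than in sham (log2 fold change -3.39 ± 0.35, adjusted p = 1.15e-05 in edgeR) and 9.11-fold higher in AKI_PTPi_mEVs than in AKI_PBS (log2 fold change 3.19 ± 0.35, adjusted p = 2.47e-05 in edgeR). D030055H07Rik, a gene on the opposite strand that shares 2203 exonic bases with Glyctk, moved with it (-3.78 and 3.24). It averaged 3.36 CPM in AKI_PTPi_mEVs, 0.344 CPM in AKI_PBS and 4.92 CPM in sham, against 124, 13.6 and 142 CPM for Glyctk. The sources used here do not give the strand setting of the counting, so reads of the pair cannot be told apart. In all, 14 of the 40 genes share exonic bases with another annotated gene, 13 of them on the opposite strand.

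Most markers of the proximal tubule were called in the same comparisons as these genes. The 15 markers, among them Gatm, Aqp1, Lrp2 and Cubn, summed to 8807 to 14067 CPM in AKI_PTPi_mEVs libraries, 3930.4 to 6499.5 CPM in AKI_PBS libraries and 13287 to 16922 CPM in sham libraries, and none was at 0 counts in any group. In AKI_PBS 14 of the 15 fell relative to sham, in AKI_PTPi_mEVs 11 rose relative to AKI_PBS, and 4 fell in AKI_PTPi_mEVs relative to sham. Of all genes tested, 27.8% rose and 27.9% fell in the first of these comparisons. The shares were 25.4% and 25.8% in the second, and 7.43% and 5.79% in the third. The markers were not uniform. Gatm, Aqp1, Lrp2 and Cubn averaged 952, 1059, 200 and 45.4 TPM in AKI_PTPi_mEVs against 1136, 1154, 231 and 45.9 TPM in sham. Slc7a13, Cyp7b1 and Slc22a7 averaged 243, 30.0 and 200 TPM against 1185, 221 and 901 TPM. Of 7 loop of Henle markers, 5 fell in AKI_PBS relative to sham (median -2.02), and 4 rose and 1 fell in AKI_PTPi_mEVs relative to AKI_PBS (median 0.85). Of 6 principal cell markers tested, 4 fell in AKI_PBS relative to sham, and 3 rose and 1 fell in AKI_PTPi_mEVs relative to AKI_PBS. Of 5 podocyte markers, 4 rose in AKI_PBS relative to sham and 4 fell in AKI_PTPi_mEVs relative to AKI_PBS. In the same comparisons, 4 distal convoluted tubule markers had 1 rise and 2 falls, then 0 rises and 1 fall. For 6 intercalated cell markers the rises and falls were 0 and 2, then 1 and 2. They were 2 and 2, then 0 and 3 for 6 endothelial markers, and 1 and 0, then 2 and 1 for 6 fibroblast and pericyte markers. For 7 macrophage markers they were 1 and 2, then 2 and 1. All 9 markers of tubular injury rose in AKI_PBS relative to sham, and their sums were 7201 to 13067 CPM in AKI_PTPi_mEVs libraries, 10527 to 14929 CPM in AKI_PBS libraries and 2063 to 2399.7 CPM in sham libraries. In AKI_PTPi_mEVs 6 of the 9 fell relative to AKI_PBS, and 8 remained higher than in sham. Neutrophil markers summed to 1.84 to 2.29 CPM in AKI_PTPi_mEVs libraries, 13.9 to 27.7 CPM in AKI_PBS libraries and 0.406 to 0.837 CPM in sham libraries; 3 of the 7 (S100a8, Retnlg and Mmp8) were at 0 counts in sham and 1 (Ngp) in AKI_PTPi_mEVs. The part of these cell types in the differences of the 40 genes was not tested.

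Ratios between isozymes of the same step, taken within each library, do not depend on the library's scaling. Log2 ratios were compared between groups for 13 pairs in 3 comparisons, 39 tests in all, by two-sided exact permutation tests, for which 3 libraries against 3 cannot give a p below 0.1. After adjustment over the 39 tests the smallest p was 0.186, so none passed a threshold of 0.05. The groups did not overlap for 9 of 13 pairs in AKI_PBS against sham, 8 in AKI_PTPi_mEVs against AKI_PBS and 4 in AKI_PTPi_mEVs against sham. Several pairs share a gene, such as Pfkp, Pdk2 or Pfkfb2, so the pairs are not independent of each other. Single genes did not overlap for 62.1%, 57.9% and 39.2% of all genes tested in the same comparisons, which is not a background for ratios. The log2 ratio of Hk2 to Hk1 differed by 2.48 between AKI_PBS and sham and by -1.40 between AKI_PTPi_mEVs and AKI_PBS (exact p = 0.1 for both). That of Pfkp to Pfkl differed by 2.16 and -2.16 (exact p = 0.1 for both), and by 0.01 between AKI_PTPi_mEVs and sham (exact p = 1).

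The widest separation was that of Pdk4 to Pdk2, with 6.48 between AKI_PBS and sham and -6.50 between AKI_PTPi_mEVs and AKI_PBS (exact p = 0.1 for both), against -0.02 between AKI_PTPi_mEVs and sham (exact p = 1). The ratio of Pdp1 to Pdp2 differed by 1.88 and -1.70 in these comparisons (exact p = 0.1 for both). Pkm to Pklr differed between AKI_PTPi_mEVs and both other groups without overlap, by -2.23 against AKI_PBS and -1.13 against sham (exact p = 0.1 for both), while AKI_PBS and sham overlapped (1.10, exact p = 0.2). The ratio of Ldha to Ldhb differed by 0.24, 0.02 and 0.26 for AKI_PBS over sham, AKI_PTPi_mEVs over AKI_PBS and AKI_PTPi_mEVs over sham.

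**Figure D4:**
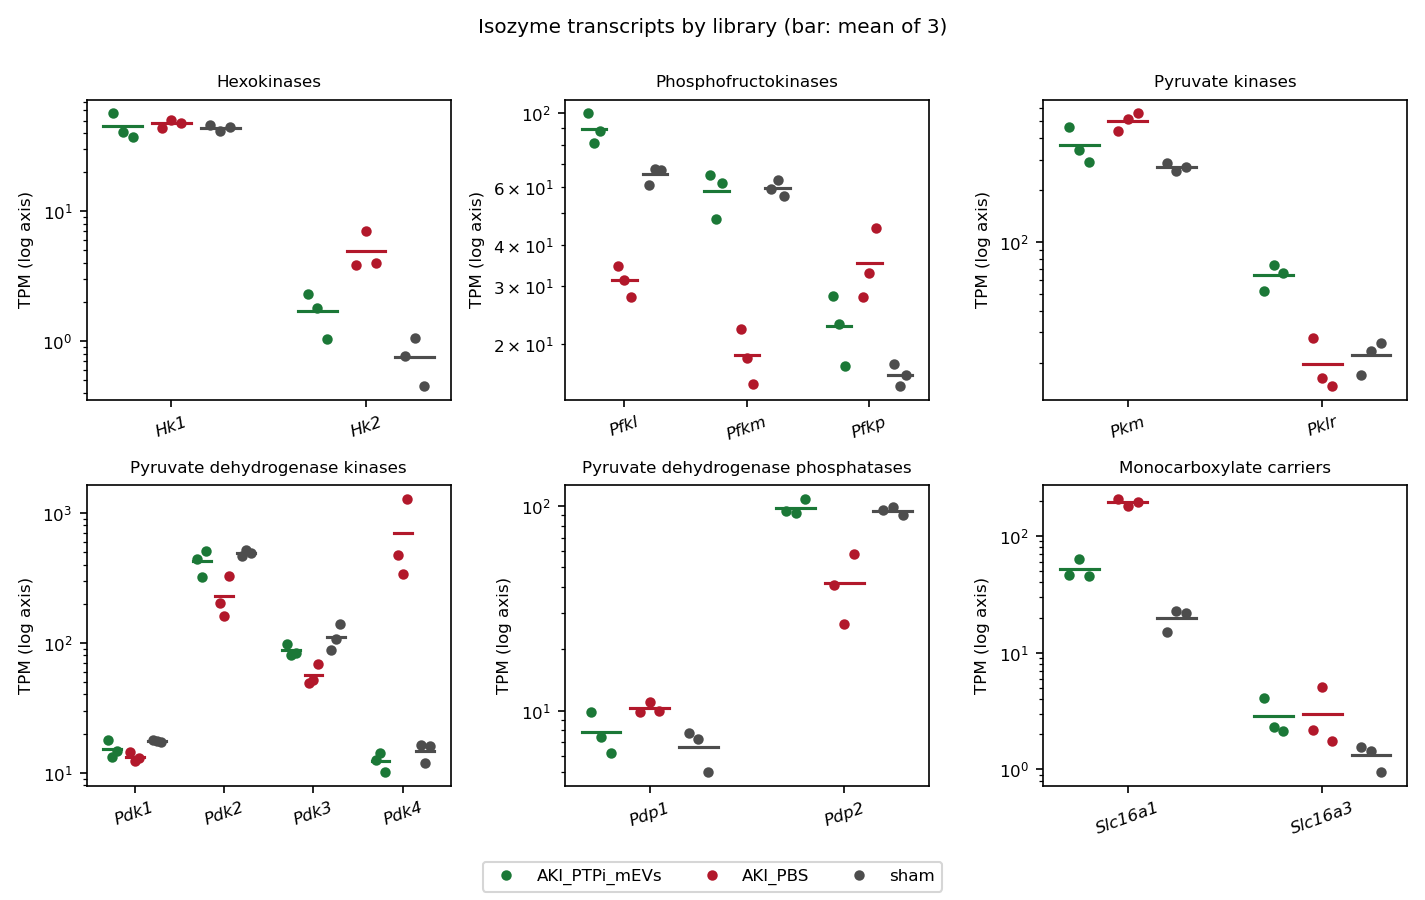
TPM on a log axis of the isozymes of 6 steps (panels) in AKI_PTPi_mEVs, AKI_PBS and sham, with a point for each library and a bar for the mean of 3. Pdk4 averages 698 ± 510 TPM (SD) in AKI_PBS, where Pdk2 is at its lowest, and Pklr is highest in the 3 AKI_PTPi_mEVs libraries.

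Other genes of the same routes were taken from lists of known pathway members. For comparison, 27.8% of all genes rose and 27.9% fell in AKI_PBS relative to sham. In AKI_PTPi_mEVs relative to AKI_PBS, 25.4% of all genes rose and 25.8% fell. Of 18 further glycolytic and gluconeogenic genes tested, 4 rose and 7 fell in AKI_PBS relative to sham (median log2 fold change -0.07), and 6 rose and 3 fell in AKI_PTPi_mEVs relative to AKI_PBS (median 0.26). Hkdc1, a hexokinase-like enzyme, and Pgm2, a sugar phosphate mutase, rose in AKI_PBS (1.98 and 1.96) and fell in AKI_PTPi_mEVs relative to AKI_PBS (-1.29 and -0.78). Galm, the aldose mutarotase, fell in AKI_PBS (-1.89) and rose in AKI_PTPi_mEVs relative to AKI_PBS (1.71), and Aldoc, the brain-type aldolase, fell in AKI_PBS (-1.50). Of 7 other genes of fructose and polyol metabolism tested, 5 fell in AKI_PBS relative to sham (median -0.96) and 5 rose in AKI_PTPi_mEVs relative to AKI_PBS (median 1.26). Among them Slc2a5, the fructose transporter, had -2.42 and 1.99, and Akr1b3, the aldose reductase that makes sorbitol, had -2.81 and 2.35. Grhpr, the glyoxylate and hydroxypyruvate reductase, had -1.46 and 1.26, and Tkfc, the triokinase of fructose breakdown, had -0.89 and 1.40.

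Of the 14 transporters of glucose, lactate and related monocarboxylates, 3 rose and 9 fell in AKI_PBS relative to sham (median -1.29). In AKI_PTPi_mEVs relative to AKI_PBS 8 rose and 2 fell (median 0.96), with 1 falling when AKI_PTPi_mEVs replicate 3 was left out. Slc2a2, the basolateral glucose exit of the proximal tubule, fell in AKI_PBS (-2.85) and rose in AKI_PTPi_mEVs relative to AKI_PBS (3.32). Slc5a1, a sodium-glucose cotransporter, had -2.04 and 2.44, and Slc5a8, a sodium-lactate cotransporter, had -2.62 and 1.63. Slc16a12, a monocarboxylate carrier family member that moves creatine, had -1.05 and 1.76. Of 16 citric acid cycle genes 12 fell in AKI_PBS relative to sham (median -0.63), and 12 rose in AKI_PTPi_mEVs relative to AKI_PBS (median 0.56). Idh3a, a subunit of isocitrate dehydrogenase, had -0.97 and 1.33, and Suclg1, a subunit of succinyl-CoA ligase, had -1.11 and 0.98. Idh3b, another subunit of the same dehydrogenase as Idh3a, had -0.78 and 0.60, and Idh2, the mitochondrial isocitrate dehydrogenase that makes NADPH, had -0.88 and 0.54. Of 14 other genes of pyruvate dehydrogenase and pyruvate handling, 5 fell and 1 rose in AKI_PBS relative to sham, and 5 rose in AKI_PTPi_mEVs relative to AKI_PBS. The 1 that rose was Lias, a lipoyl synthase named after its value was seen (0.33), and it was not called without any 1 of the AKI_PBS libraries or without sham replicate 1 or 2. Slc25a11, the oxoglutarate carrier of the malate-aspartate shuttle, had -1.26 and 1.25, and Slc25a10, the dicarboxylate carrier, had -0.80 and 0.98. Me3, a mitochondrial malic enzyme, had -0.79 and 0.52. Mdh1, the cytosolic malate dehydrogenase, fell in AKI_PBS relative to sham (-0.65), and its value for AKI_PTPi_mEVs over AKI_PBS, 0.38, was not called.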

How the data were processed

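RNA was sequenced from 9 mouse kidney libraries, 3 per group; per the labels, 100 ng of total RNA entered a kit that uses the Tn5 transposase. The authors deposited one table of raw counts, whole numbers of reads per gene. STAR and HTSeq were used, per the submitters' processing notes, with no versions. Those notes name the human build GRCh38.p14, whereas all 56923 identifiers are mouse Ensembl genes, so the build is not settled and no gene coordinates from it are given; the sources used here give neither read filters nor the strand setting.

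Symbols were matched for 52073 identifiers, and 4850 had none. Aldoa has a second identifier with 3 to 9 counts per library, and the one with more counts was used. Ero1a was matched as Ero1l. Every column of the table was mapped to a sample. Differences were tested with edgeR 4.0.16 in R 4.3.3 (with limma 3.58.1): filterByExpr, TMM scaling, 1 robust quasi-likelihood fit over the 9 libraries with 6 residual degrees of freedom, and Benjamini-Hochberg adjustment over 17036 genes at 0.05. The fit was tested on simulated data. TPM used exon lengths of GENCODE vM21. Isozyme ratios were log2 CPM differences with a prior count of 2, compared by exact permutation. Promoters came from RefSeq on GRCm38.p6, where 39 of the 40 genes were matched. Tables and figures were made with Python 3.11.15, pandas 2.3.3 and matplotlib 3.10.9.

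The 40 genes and the other gene lists were chosen with earlier results of these data known. All 40 genes are accounted for, and of each other pathway list the 4 genes with the smallest adjusted p are named; genes named outside this rule are marked as such, apart from cell type markers and genes that overlap one of the 40. No pair of libraries within a group agreed within sampling noise (chi-square per degree of freedom of 7.55 to 40.3). Library totals of 9467851 to 11389479 counts, a 1.20-fold range, set the precision. Alternatives were size factors by the median of ratios, library totals, DESeq2 1.42.0, no low-count filter, a filter of at least 1 CPM in 3 libraries, only the groups compared, the replicate number as a block, a prior count of 0.5 and each library left out.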

Additional observations from a re-analysis of the deposited data

Results flagged for a closer look

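Pgam1, Pfkl and Gpi1 were the genes for which the injured groups lay on opposite sides of sham, with every AKI_PTPi_mEVs library above and every AKI_PBS library below all sham libraries, and for which the difference between the injured groups passed the edgeR threshold. The log2 difference of AKI_PTPi_mEVs minus AKI_PBS was 1.61 for Pfkl, 1.03 for Pgam1 and 0.66 for Gpi1, each over 3 libraries per group.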

How the results depend on the processing

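The genes whose sign changed under an alternative were all uncalled in that comparison as reported. For AKI_PBS against sham, Hk1 was 0.0773 with library totals, 0.0030 with only the groups compared and 0.0019 with the replicate block, and Ldha was -0.0020 with no low-count filter. For AKI_PTPi_mEVs against AKI_PBS, Slc16a3 was -0.10 with library totals, and Hk1 was 0.0396 with no filter and 0.0048 with only the groups compared. For AKI_PTPi_mEVs against sham, Pdp2 was -0.0057 with library totals and Hk1 0.0027 with no filter. With 1 library left out, values for AKI_PBS against sham spanned -0.0575 to 0.0509 for Hk1, -0.24 to 0.13 for Pfkfb4, -0.0543 to 0.12 for Gapdh, -0.0889 to 0.16 for Ldha and -0.59 to 0.14 for Pck1. For AKI_PTPi_mEVs against AKI_PBS they spanned -0.14 to 0.10 for Hk1, -0.12 to 0.0455 for Gapdh, -0.27 to 0.59 for Slc16a3, -0.28 to 0.0190 for Mpc2 and -0.26 to 1.63 for G6pc. For AKI_PTPi_mEVs against sham they spanned -0.15 to 0.0901 for Hk1, -0.13 to 0.0346 for Pfkm, -0.0676 to 0.0583 for Gapdh, -0.0841 to 0.0399 for Ldhb, -0.0769 to 0.0994 for Pdp2, -0.17 to 0.0384 for Slc37a4 and -0.43 to 0.0784 for Glyctk.

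Of the 40 genes, 6 fell in AKI_PTPi_mEVs relative to AKI_PBS, against 3 with only the groups compared and 3 to 6 with 1 library left out (3 without AKI_PBS replicate 3 or AKI_PTPi_mEVs replicate 2). Relative to sham, 2 fell in AKI_PTPi_mEVs, against 4 with library totals, DESeq2, no filter, only the groups compared or the replicate block, and 3 rose, against 7 with DESeq2 and 6 with no filter or only the groups compared. The counts for AKI_PBS against sham ranged over 5 to 7 higher and 17 to 22 lower with 1 library left out, and those higher in AKI_PTPi_mEVs than in AKI_PBS over 18 to 21. Among the 40 genes, over the 3 comparisons, library totals, median-of-ratios size factors and the replicate block each ended 1 call, and no filter and only the groups compared each ended 4. Library scaling hardly enters a ratio within a library, so those alternatives say little about the isozyme ratios. With 1 library left out, the Pdk4 to Pdk2 difference spanned 6.21 to 6.65 for AKI_PBS against sham. That of Pfkp to Pfkm spanned 0.35 to 0.74 for AKI_PTPi_mEVs against sham. The Ldha to Ldhb difference changed sign for AKI_PTPi_mEVs against AKI_PBS (-0.0763 to 0.0724).

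Library totals moved the median of all genes to 0.11 in AKI_PBS relative to sham, with 55.0% of calls higher against 49.9% under TMM, and to -0.13 in AKI_PTPi_mEVs relative to AKI_PBS, with 42.7% against 49.6%. Deviations from the group mean correlated at -0.19 to 0.11 between libraries with the same replicate number and at -0.17 to 0.15 between others. With 3 libraries per group such deviations are tied to each other, so these correlations cannot decide whether the numbers pair the libraries. With the replicate block, G6pc was -1.69 for AKI_PBS against sham (edgeR adjusted p = 0.0114). With 3 libraries per group and Hk2, Slc16a3 and Pdp1 at a few to 15 CPM, small differences were not detectable. The cause of these changes was not tested.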

Other observations

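Regulators of these routes were called in both directions. Of 22 transcriptional regulators, 9 rose and 8 fell in AKI_PBS relative to sham (median log2 fold change 0.18, against 0.03 for all genes), and 7 rose and 9 fell in AKI_PTPi_mEVs relative to AKI_PBS (median -0.26, against -0.03). The called shares of all genes were 55.7% and 51.1% in these comparisons. Txnip, a glucose-responsive inhibitor of glucose uptake, averaged 111 ± 11.3 CPM in AKI_PTPi_mEVs, 528 ± 117 CPM in AKI_PBS and 174 ± 29.2 CPM in sham (SD, n = 3 each), and its log2 fold changes were 1.60 for AKI_PBS over sham and -2.25 for AKI_PTPi_mEVs over AKI_PBS. Mlxip, one of the glucose-sensing transcription factors, had 1.35 and -1.47. Nr4a1, an immediate-early nuclear receptor, had 3.67 and -3.61. Esrra, an orphan nuclear receptor of mitochondrial genes, fell in AKI_PBS (-1.58) and rose in AKI_PTPi_mEVs relative to AKI_PBS (1.34).

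Genes known as targets of hypoxia were called in both directions, as were genes at large. Among all genes tested, 27.8% rose and 27.9% fell in AKI_PBS relative to sham, and 25.4% rose and 25.8% fell in AKI_PTPi_mEVs relative to AKI_PBS. Of 14 hypoxia targets tested, 5 rose and 4 fell in AKI_PBS relative to sham (median 0.10), and 3 rose and 5 fell in AKI_PTPi_mEVs relative to AKI_PBS (median 0.09). The 3 became 1 without AKI_PBS replicate 1 or 2 or AKI_PTPi_mEVs replicate 1, and the 5 became 2 or 3 without AKI_PBS replicate 2 or 3 or AKI_PTPi_mEVs replicate 2 or 3. Ddit4, an inhibitor of mTOR signalling, and Ndrg1, a stress-responsive gene, rose in AKI_PBS (2.64 and 1.43) and fell in AKI_PTPi_mEVs relative to AKI_PBS (-2.45 and -1.34). P4ha1, a collagen prolyl hydroxylase, went the other way (-1.24 and 1.71), as did Car9, a carbonic anhydrase (-1.51 and 0.75), whose second call was lost without AKI_PBS replicate 1 or 2 or AKI_PTPi_mEVs replicate 1.

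Of 9 pentose phosphate genes, 3 rose and 2 fell in AKI_PBS relative to sham (median 0.42), with 5 rising when AKI_PBS replicate 3 was left out. In AKI_PTPi_mEVs relative to AKI_PBS 4 rose and 2 fell (median 0.42), and fewer than 2 fell without AKI_PBS replicate 1 or 2 or AKI_PTPi_mEVs replicate 1 or 3. Pgd, the phosphogluconate dehydrogenase, averaged 288 ± 36.5 CPM in AKI_PTPi_mEVs, 411 ± 69.6 CPM in AKI_PBS and 133 ± 18.7 CPM in sham (SD, n = 3 each), and it rose in both injured groups relative to sham (1.11 in AKI_PTPi_mEVs and 1.62 in AKI_PBS). Prps1, a ribose phosphate pyrophosphokinase, also rose in both (1.09 in AKI_PTPi_mEVs and 0.54 in AKI_PBS). Its paralogue Prps2 and the epimerase Rpe fell in AKI_PBS (-1.34 and -0.83) and rose in AKI_PTPi_mEVs relative to AKI_PBS (1.38 and 1.16).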
